A study of Homo sapiens with 2 samples.

Results

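Translation factors, the proteins that bring ribosomes to mRNAs, move them along and release the finished chain, were described in 2 RNA sequencing libraries of MDA-MB-231 cells, a human cell line from a triple-negative breast cancer. The members were the genes whose symbol begins with EIF1 to EIF6, EEF1 or EEF2, together with ETF1, GSPT1, GSPT2, PABPC1 and PABPC4. The eIF2 kinases, EEF1E1 and names that end in P and a number, the form used for pseudogenes, were left out. This gave 67 members among 60624 named genes. One culture had been kept for 24 h with 1 µM of an agent that the labels call CEL, and the other, labelled Control, had been kept for 24 h with no agent named. Both are the same line grown alone, and each group is 1 library. None of the differences could be checked in replicates, and "higher" or "lower" refers to what CEL showed relative to Control. The series as a whole concerns M1 macrophage exosomes and CEL in triple-negative breast cancer.

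Initiation starts when the factor eIF2, carrying GTP and the initiator tRNA, joins the small ribosomal subunit together with eIF1, eIF1A, eIF5 and the large scaffold eIF3. The eIF4 proteins bind the cap of the mRNA, unwind its leader and, through poly(A)-binding protein, connect it to the tail. After the start codon is found and the large subunit joins, eEF1A delivers each aminoacyl-tRNA, eEF2 moves the ribosome on by a codon, eIF5A helps at difficult peptide bonds, and eRF1 with eRF3 releases the chain at a stop codon. Stress kinases that phosphorylate the alpha subunit of eIF2, and the growth kinase mTORC1 acting on the cap-binding step, are the best known controls. RNA levels, which are measured here, do not show how active these factors were.

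The libraries held 17199398 reads in genes for CEL and 14821148 for Control. Levels are FPKM, reads scaled to gene length and to library size, as the authors computed them, and whole reads were recovered from them. Mitochondrially encoded genes took 4.07% of the reads in CEL and 7.14% in Control and the part of that gap in the results was not tested. The median log2 difference of the 8377 named genes at 10 FPKM or more was 0.05. The markers expected to be high in this line, VIM, CD44 and AXL, had 350, 1024 and 519 FPKM in CEL against 399, 928 and 401 FPKM in Control. Of the markers expected to be low, ESR1 and PGR had 0 reads in both libraries, and CDH1 had 7 reads in CEL and 26 in Control. ERBB2 and EPCAM, also expected to be low, were clearly detected. ERBB2 had 48.8 FPKM in CEL and 71.7 FPKM in Control, and EPCAM had 8.97 FPKM in CEL and 17.2 FPKM in Control. Of 6 macrophage markers, CD14 and CSF1R reached 1 FPKM and LYZ had 0 reads, and the 6 summed to 3.75 FPKM in CEL and 4.83 FPKM in Control, and the 4 fibroblast markers to 16.2 FPKM in CEL and 13.2 FPKM in Control, most of it PDGFRB at 12.8 FPKM in CEL and 11.4 FPKM in Control.

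Most translation factor transcripts were modestly higher in the CEL library, by less than 1.5-fold, and the size depended on gene length. With the trend of the difference with length subtracted, the median log2 difference of the measured members was 0.14 in place of 0.28, and 2 in place of 7 were at least 1.5-fold higher. Of the 67 members, 61 reached 1 FPKM in at least 1 library. On the scale of log2((CEL FPKM + 1)/(Control FPKM + 1)), which understates the change of low genes, 7 of the 61 (11.5%) were at least 1.5-fold higher, against a background of 8.97% of all 13745 named genes at that level. That share is near the background. In such bulk RNA, a difference in some of the cells and one in every cell cannot be told apart. The count at least 1.5-fold lower was 0 of 61, where the background was 10.2%. At least 2-fold higher and at least 2-fold lower were 0 members each, against 2.70% and 3.24% of all genes. The difference was above 0 for 50 members (82.0%), against 50.2% of all genes, and the median was 0.28 for the members and 0.00 for all genes. Protein-coding genes with at least 10 FPKM are closer to the members in level. Of 8170 such genes, 8.57% were at least 1.5-fold higher and 6.38% lower, 1.82% at least 2-fold higher and 1.70% lower. The difference was above 0 for 54.8% of them and below 0 for 45.2%, against 11 of the 61 members below 0 and 49.8% of all genes, and their median was 0.05.

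Ratios are FPKM of CEL over Control without a pseudocount, and each has a 95% interval, exact and binomial, conditional on the sum of its reads. The intervals cover counting error only, since amplified reads are not independent molecules and the spread between cultures is unknown. The interval lay above 1 for 42 members (68.9%) and below 1 for 7 (11.5%), against 29.9% and 29.1% of all genes (40.7% and 32.4% of the abundant protein-coding genes), and it included 1 for 12. An interval that leaves out 1 compares these libraries and not the conditions.

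**Figure D1:**
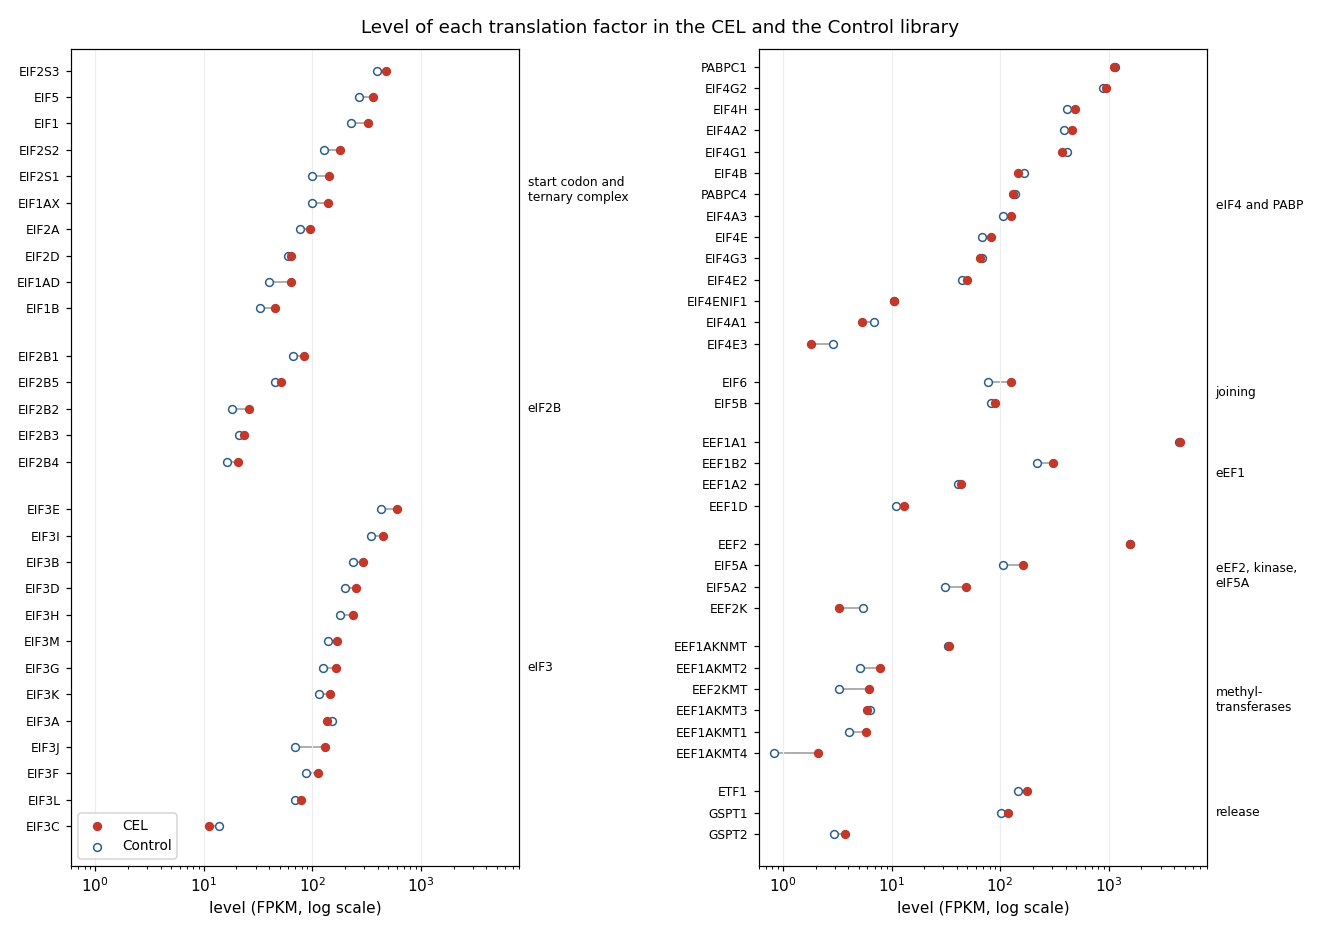
Level of the 61 members that reached 1 FPKM, in FPKM on a log axis, with CEL as filled red points and Control as open blue points (1 library each), grouped by role and ordered by level. Levels span from 1.80 to 4521 FPKM in CEL and from 0.830 to 4417 FPKM in Control, and most red points sit slightly to the right of the blue ones.

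The order of the members by level was nearly the same in both libraries (Spearman's rho 0.988 over 61 genes, a description). EEF1A1, which delivers aminoacyl-tRNAs, had the highest level on the FPKM scale, followed by EEF2, PABPC1 and EIF4G2. Deposited lengths can be shorter than the coding sequence, with 935 against 1911 bases for PABPC1 and 2607 against 4800 for EIF4G1. Rankings between genes therefore hold on the FPKM scale only. By reads, EIF4G2 stood above PABPC1, with 20542 against 17942 in CEL and 16544 against 15865 in Control. Lengths named below are the deposited ones. Together the measured members took 2.38% of the reads in CEL and 2.18% in Control. Their summed level was 16138 FPKM in CEL and 14477 FPKM in Control.

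**Figure D2:**
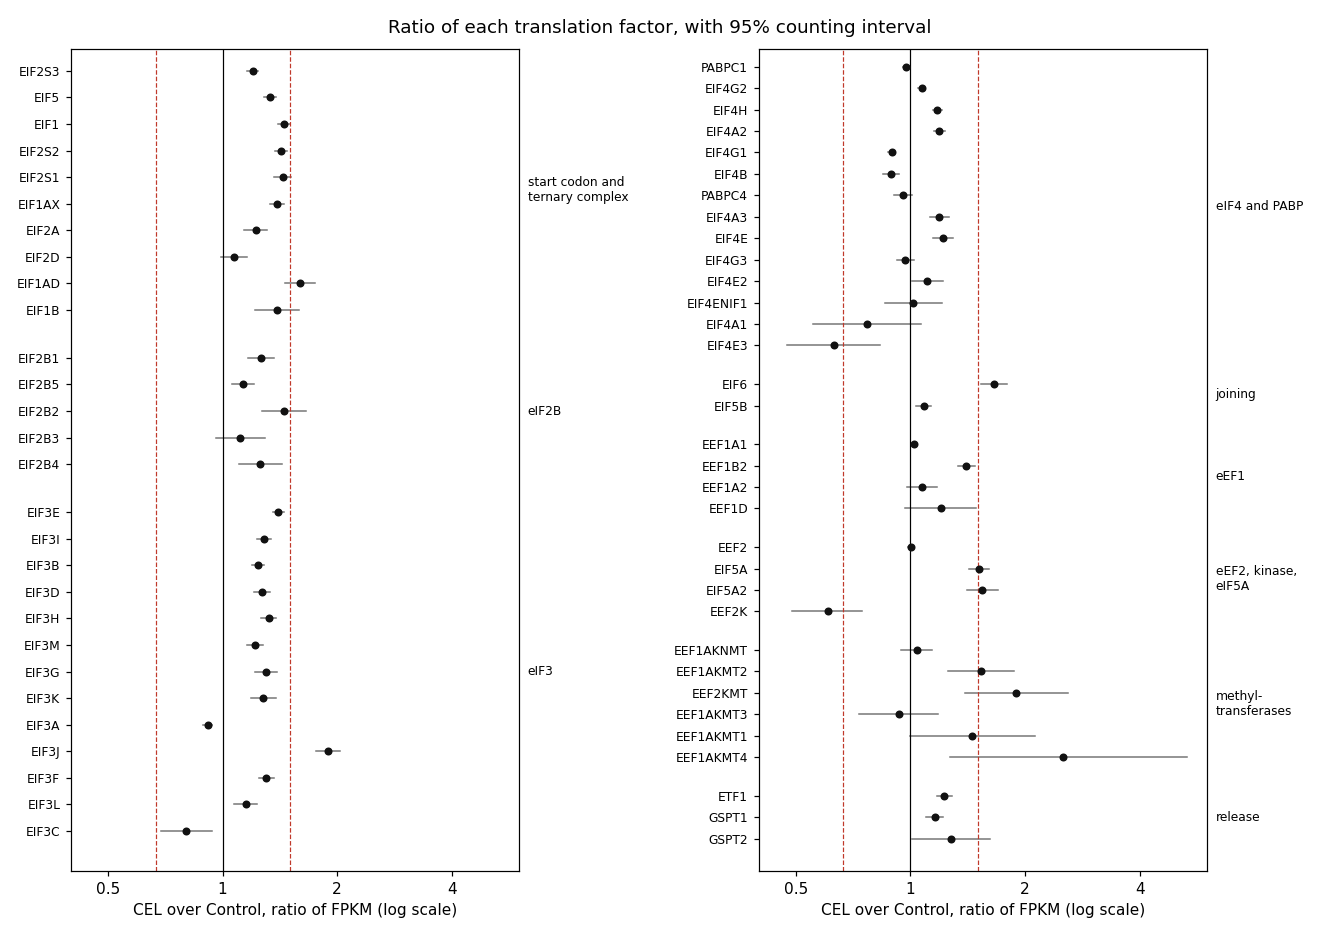
Ratio of FPKM, CEL over Control, on a log axis, with the exact 95% counting interval as a bar for each of the 61 measured members, in the order of the plot of levels. The solid line marks 1 and the dashed red lines mark 1.5-fold in either direction; EIF3J at 1.89 stands to the right of the other eIF3 subunits and EEF2K at 0.606 is the lowest.

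With relatives such as EIF1AD, the factors that build the initiation complex around the initiator tRNA were higher in CEL in all 10 measured cases. Of all genes, 50.2% were above 0. Log2 differences of the group ran from 0.10 to 0.66, with a median of 0.47. With the length trend subtracted they ran from 0.02 for EIF2D to 0.58 for EIF1AD. EIF2S1, the alpha subunit of eIF2 that stress kinases phosphorylate, had 142 FPKM (3891 reads) in CEL and 98.7 FPKM (2331 reads) in Control. EIF2S2, the beta subunit, had 180 FPKM in CEL and 127 FPKM in Control, and EIF2S3, the gamma subunit that binds GTP and the tRNA, had 473 FPKM in CEL and 394 FPKM in Control. The ratios of alpha and beta were close to each other, 1.44 (1.37 to 1.51) and 1.42 (1.37 to 1.47), and the gamma ratio of 1.20 (1.16 to 1.24) did not overlap with them. EIF5, which makes eIF2 hydrolyse its GTP at the start codon, had 359 FPKM in CEL and 270 FPKM in Control, a ratio of 1.33 (1.28 to 1.38).

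EIF1, which guards start codon choice, had 326 FPKM in CEL and 225 FPKM in Control, a ratio of 1.45 (1.394 to 1.503). Its close relative EIF1B had 45.4 FPKM in CEL and 32.7 FPKM in Control, a ratio of 1.39 (1.22 to 1.58). EIF1B is short, and its log2 difference of 0.46 was 0.14 with the length trend subtracted. It stood at 13.9% of the EIF1 level in CEL and 14.5% in Control. EIF1AX, which works beside eIF1 on the small subunit, had 139 FPKM in CEL and 99.7 FPKM in Control, a ratio of 1.39 (1.34 to 1.45). EIF1AD, a relative of eIF1A (ENSG00000175376; GRCh38 chromosome 11, 65996545 to 66002176), was the only one of the group past 1.5-fold, with 63.2 FPKM (1368 reads) in CEL and 39.6 FPKM (739 reads) in Control and a ratio of 1.60 (1.46 to 1.75). With the trend of the ratio with gene length subtracted, its log2 difference of 0.66 was 0.58, just short of that mark. The lowest difference was that of EIF2D, an alternative initiator tRNA carrier, with 63.4 FPKM in CEL and 59.2 FPKM in Control and an interval of 0.989 to 1.16. EIF2A, another alternative carrier, had 95.2 FPKM in CEL and 77.9 FPKM in Control. EIF2S3B, a near copy of EIF2S3, had 4 reads in CEL and 6 in Control, and its coding sequence was 98.2% identical to that of EIF2S3. EIF1AY lies on the Y chromosome and its level is not given.

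The 5 subunits of eIF2B, which recharges eIF2 with GTP and is the point at which stress signalling acts, were also higher in CEL, with a median log2 difference of 0.31 and 0 of 5 past 1.5-fold. Of all genes, 50.2% were above 0 and 8.97% were at least 1.5-fold higher. EIF2B2, the beta subunit, had the highest ratio, 1.45 (1.27 to 1.66), at 26.4 FPKM in CEL and 18.2 FPKM in Control. EIF2B3, the gamma subunit, had the lowest, with 23.7 FPKM in CEL and 21.3 FPKM in Control and an interval of 0.962 to 1.29, and its log2 difference of 0.15 was −0.00 with the length trend subtracted. EIF2B1, the alpha subunit, stood highest in level at 83.3 FPKM in CEL and 66.0 FPKM in Control. EIF2B5, the catalytic epsilon subunit, had 51.3 FPKM in CEL and 45.4 FPKM in Control, and EIF2B4 had 20.6 FPKM in CEL and 16.4 FPKM in Control. Of the exonic bases of EIF2B2, 23.6% are shared with a gene on the other strand in GENCODE 29, and whether the counting used strand is not known, so its value is uncertain.

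The scaffold eIF3 had most subunits within a narrow band of ratios, with EIF3J above it and EIF3A and EIF3C below. Of the 13 measured eIF3 genes, 11 were higher in CEL, where 50.2% of all genes were. Of these 11, 10 had ratios between 1.15 for EIF3L and 1.40 for EIF3E. EIF3J, a loosely attached subunit that helps position mRNA on the small subunit (ENSG00000104131; chromosome 15, 44537125 to 44563029), had 130 FPKM (2350 reads) in CEL and 68.8 FPKM (1069 reads) in Control. Its ratio of 1.89 (1.76 to 2.04) was exceeded among the measured members only by that of EEF1AKMT4, on few reads, and its interval overlapped with that of no other measured eIF3 gene. EIF3J stayed past 1.5-fold under every planned and added alternative, with log2 differences of 0.75 to 0.92. EIF3A, the largest scaffold subunit (ENSG00000107581; chromosome 10, 119033670 to 119080823), was slightly lower in CEL at 138 FPKM (9768 reads), against 151 FPKM (9221 reads) in Control, a ratio of 0.913 (0.887 to 0.939). EIF3A has the greatest length of the measured members, 4115 bases, and its log2 difference of −0.13 was −0.01 with the length trend subtracted and 0.03 with the trend subtracted within expression bins.

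Within the narrow band, EIF3E had the highest level at 606 FPKM in CEL and 433 FPKM in Control, followed by EIF3I at 446 FPKM in CEL and 347 FPKM in Control. EIF3B, a central scaffold subunit, had 294 FPKM in CEL and 237 FPKM in Control. EIF3D, which can itself bind caps, had 254 FPKM in CEL and 201 FPKM in Control, and EIF3H had 240 FPKM in CEL and 181 FPKM in Control. EIF3M, EIF3G, EIF3K and EIF3F lay between 114 and 169 FPKM in CEL and between 87.2 and 139 FPKM in Control, and EIF3L was lowest of these at 79.2 FPKM in CEL and 68.9 FPKM in Control. EIF3L shares 51.8% of its exonic bases with other genes in GENCODE 29. EIF3K, the shortest of them at 711 bases, had a log2 difference of 0.35, and of −0.04 with the length trend subtracted. The median log2 difference of the eIF3 genes was 0.35, and it was 0.13 with the length trend subtracted and 0.12 within expression bins. EIF3C could not be read in the same way. It had 11.2 FPKM in CEL and 14.0 FPKM in Control, far under the other subunits, and its duplicate EIF3CL had 20 reads in CEL and 7 in Control. The aligned coding sequences of EIF3C and EIF3CL were 100% identical over 2742 bases, and the part of this shared sequence in the low values was not tested.

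The cap-binding eIF4 factors and the poly(A)-binding proteins did not share the upward difference. Of 14 measured genes, 7 were above 0 and 7 below, and the median log2 difference was −0.01 (0.01 with the length trend subtracted). On the scale with the pseudocount, 0 passed 1.5-fold in either direction. EIF4E, which holds the cap, had 82.4 FPKM (2497 reads) in CEL and 67.7 FPKM (1766 reads) in Control, a ratio of 1.22 (1.15 to 1.30) and the highest of the group. EIF4G1, the main scaffold between cap and ribosome, was slightly lower at 369 FPKM in CEL and 413 FPKM in Control, a ratio of 0.894 (0.874 to 0.913). EIF4B, which stimulates the helicase, was likewise lower at 147 FPKM in CEL and 165 FPKM in Control, a ratio of 0.888 (0.846 to 0.934). Its partner EIF4H had 487 FPKM in CEL and 414 FPKM in Control, a ratio of 1.18 (1.15 to 1.21).

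The paralogs of the cap-binding group differed from each other. EIF4G2, a scaffold that lacks the site for eIF4E, stood above EIF4G1 at 948 FPKM in CEL and 886 FPKM in Control, and EIF4G3 had 65.8 FPKM in CEL and 67.8 FPKM in Control with an interval of 0.921 to 1.02. EIF4E2, a cap-binding repressor, had 49.8 FPKM in CEL and 44.9 FPKM in Control, with 24.2% of its exonic bases shared with the other strand. EIF4E3, another cap-binding paralog (ENSG00000163412; chromosome 3, 71675414 to 71754773), had 1.80 FPKM (89 reads) in CEL and 2.87 FPKM (122 reads) in Control. Its plain ratio of 0.629 (0.473 to 0.833) was past 1.5-fold lower, and on the scale with the pseudocount it stayed inside the mark at −0.46. EIF4E1B had 0 reads in both libraries. EIF4ENIF1, which carries eIF4E into the nucleus and into mRNA decay bodies, had 10.6 FPKM in CEL and 10.5 FPKM in Control. PABPC1, the abundant poly(A)-binding protein, had 1115 FPKM in CEL and 1144 FPKM in Control, a ratio of 0.975 (0.954 to 0.996), and PABPC4 had 132 FPKM in CEL and 137 FPKM in Control with an interval of 0.906 to 1.01.

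Among the helicases, EIF4A2 had 458 FPKM in CEL and 385 FPKM in Control, a ratio of 1.19 (1.15 to 1.23). EIF4A3, the form that marks spliced junctions, had 127 FPKM in CEL and 107 FPKM in Control, also with a ratio of 1.19 (1.13 to 1.26). EIF4A1 was listed at 5.29 FPKM (74 reads) in CEL and 6.89 FPKM (83 reads) in Control, 86.6-fold under EIF4A2 in CEL and 55.8-fold under it in Control on the FPKM scale. Of its exonic bases, 48.6% are shared with other genes on the same strand in GENCODE 29, and the overlapping readthrough gene SENP3-EIF4A1 had 7 reads in CEL and 1 in Control. The part of this overlap in the low value was not tested. At subunit joining, EIF6, which keeps the subunits apart until the large one is mature (ENSG00000242372; chromosome 20, 35278911 to 35284985), had 127 FPKM (1858 reads) in CEL and 76.7 FPKM (967 reads) in Control, a ratio of 1.66 (1.53 to 1.79). Its log2 difference of 0.72 was 0.47 with the length trend subtracted, under the 1.5-fold mark. EIF5B, the GTPase that joins the subunits, had 89.2 FPKM in CEL and 82.2 FPKM in Control, a ratio of 1.08 (1.04 to 1.13).

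Without the length trend subtracted, the main elongation factors were close to equal in both libraries. Of the 4 measured eEF1 genes EEF1B2 had the highest ratio. EEF1A1 (ENSG00000156508; chromosome 6, 73515750 to 73523797) had 4521 FPKM in CEL and 4417 FPKM in Control, a ratio of 1.02 (1.02 to 1.03), and EEF2 (chromosome 19, 3976056 to 3985463) had 1579 FPKM in CEL and 1572 FPKM in Control, a ratio of 1.00 (0.985 to 1.02). The sign of the log2 difference of EEF1A1, 0.03, was negative on the TPM scale and when centred on the median. That of EEF2, 0.01, was negative under those alternatives and with the length trend subtracted. With that trend subtracted, EEF2 was at −0.24 and EEF1A1 at 0.06. EEF1B2, which recharges eEF1A with GTP (chromosome 2, 206159585 to 206162928), had 310 FPKM (3861 reads) in CEL and 221 FPKM (2373 reads) in Control, a ratio of 1.40 (1.33 to 1.48). EEF1B2 has a length of 725 bases, and its log2 difference of 0.49 was 0.11 with the length trend subtracted, overall or within expression bins. EEF1A2, the form of eEF1A typical of muscle and neurons, had 43.6 FPKM in CEL and 40.7 FPKM in Control with an interval of 0.977 to 1.18. It stood at 0.965% of the EEF1A1 level in CEL and 0.922% in Control. EEF1D, far under EEF1B2, had 13.1 FPKM (209 reads) in CEL and 10.9 FPKM (150 reads) in Control with an interval of 0.969 to 1.49. Of its exonic bases, 34.0% are shared with genes on the other strand. The part of this overlap in the low value was not tested, so its level is uncertain. EEF1G, another subunit of the exchange complex, had 0 reads in both libraries. In GENCODE 29, 99.9% of its exonic bases are shared with AP002990.1, a gene on the same strand that had 48 reads in CEL and 46 in Control, so the 0 cannot be read as absence of its RNA.

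Many translation factor mRNAs are known to begin with a C and a run of pyrimidines, the 5′ terminal oligopyrimidine tract through which mTORC1 and LARP1 control their translation. RefSeq starts on GRCh38.p14 were found for 52 of the 67 members, and 13 members had more than 1 start. A gene was counted as holding the tract if any of its starts had a C at the start base followed by 4 or more C or T. This was so for 13 of the 52, against 5.14% of 27305 genes. EEF1B2 also has a start without the tract, which is not shown. The windows below, 20 bases before the start and 10 from it, are shown because the 2 most abundant members hold the tract, and the tract is in capitals within the 10 bases.
EEF1A1 (chr6:73521023-73521052, minus strand): cagtagtcgccgtgaacgttCTTTTTCgca
EEF2 (chr19:3985454-3985483, minus strand): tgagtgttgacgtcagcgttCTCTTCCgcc
EEF1B2 (chr2:206159875-206159904, plus strand): attttccggtctcttcgggtCCTTTTTCCT
EIF4B (chr12:53006436-53006465, plus strand): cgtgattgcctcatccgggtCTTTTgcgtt
EIF2S3 (chrX:24054936-24054965, plus strand): cagccggggtgatttccttcCTCTTTTggc
EIF3F (chr11:7987317-7987346, plus strand): gtcatttccgcttccgcctcCTTCTTTCTC
EIF4A2 (chr3:186783557-186783586, plus strand): gggtggttgggcgccgctgtCTTTTCagtc

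For contrast, the starts of EIF3J and EIF1AD, both past 1.5-fold, hold no such tract in this table and are printed without capitals.
EIF3J (chr15:44537127-44537156, plus strand): tgactcacctccgccgtgctaactcctcgc
EIF1AD (chr11:66002148-66002177, minus strand): gcctccgagacagcgccggaagtacggttt

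The 12 measured members with the tract had log2 differences from −0.17 for EIF4B to 0.49 for EEF1B2, with a median of 0.27 and 0 past 1.5-fold. The 35 measured members with a start and no tract ran from −0.58 to 0.91, with a median of 0.29 and 6 past 1.5-fold. The ranges overlap, and the tract did not separate the members by difference in RNA. The E-box CACGTG, searched on both strands of the 300 bases from 250 before to 50 after the start, was found in 12 of the 52 members (23.1%) and in 8.77% of all genes. Its 12 measured holders had a median log2 difference of 0.27, and the 35 measured members without it 0.29. The motif TGACNNNGC, the core of the antioxidant response element, was found in 13 of the 52 members, and in 16.1% of all genes. Its 12 measured holders ran from −0.16 for EIF4G1 to 0.91 for EIF3J, with EEF2 at 0.01 and a median of 0.38. Of these holders, 4 were past 1.5-fold higher, where 8.97% of all genes were. With the length trend subtracted EIF3J stayed past the mark at 0.77. EIF5A at 0.46, EIF5A2 at 0.57 and EEF1AKMT4 at 0.57 were then under it. The holders had a median length of 1156 bases, against 1376 for the measured members without the motif. The 35 measured members without it ran from −0.58 to 0.72, with a median of 0.26 and 2 past 1.5-fold higher. The ranges overlap, and a link between the motif and the difference was not tested. The motif TGATGNAA, bound by ATF4 with its partners, was found in 1 member, EIF4E3, and in 4.46% of all genes. These matches describe letters in a window and show no binding.

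EIF5A and EIF5A2, which carry the unique modified lysine hypusine, were both past 1.5-fold and by nearly the same ratio. EIF5A (ENSG00000132507; chromosome 17, 7306999 to 7312463) had 162 FPKM (3039 reads) in CEL and 107 FPKM (1729 reads) in Control, a ratio of 1.51 (1.43 to 1.61). EIF5A2 (ENSG00000163577; chromosome 3, 170888418 to 170908644) had 48.2 FPKM (1268 reads) in CEL and 31.2 FPKM (708 reads) in Control, a ratio of 1.54 (1.41 to 1.69). EIF5A2 therefore stood at 29.7% of the EIF5A level in CEL and 29.1% in Control. Both were under the 1.5-fold mark on the TPM scale, when centred on the median and with the length trend subtracted, where their log2 differences were 0.56, 0.55 and 0.46 for EIF5A and 0.58, 0.56 and 0.57 for EIF5A2. With a pseudocount of 5 FPKM both were also under it, at 0.58 for EIF5A and 0.55 for EIF5A2. Reads can tell these genes apart, as the coding bases around the codon of the modified lysine show, from GENCODE 29 transcripts, over coding bases 118 to 177, with bases that differ from EIF5A in capitals.
EIF5A: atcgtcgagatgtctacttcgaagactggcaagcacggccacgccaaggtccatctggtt
EIF5A2: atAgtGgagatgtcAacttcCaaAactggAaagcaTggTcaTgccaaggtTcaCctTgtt
EIF5AL1: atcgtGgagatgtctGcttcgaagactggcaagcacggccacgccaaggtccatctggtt

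EIF5A2 differs at 12 of the 60 bases and EIF5AL1 at 2. Over the whole coding sequence EIF5A2 was 72.1% identical to EIF5A, with no identical run longer than 14 bases, while EIF5AL1 was 98.9% identical, with a run of 192 bases. EIF5AL1 had 28 reads in CEL and 20 in Control, and reads may be split between it and EIF5A. EEF2K, the kinase that switches eEF2 off (ENSG00000103319; chromosome 16, 22206278 to 22288738), had the lowest log2 difference of all members, −0.58. It had 3.29 FPKM (154 reads) in CEL and 5.43 FPKM (219 reads) in Control, a ratio of 0.606 (0.490 to 0.748). The plain ratio was past 1.5-fold lower, while the log2 difference, with its pseudocount of 1 FPKM, lay just inside the mark. That difference passed the mark on the TPM scale (−0.66), when centred on the median (−0.63) and with a pseudocount of 0.1 FPKM (−0.71). It was further inside the mark with a pseudocount of 5 FPKM (−0.33), and was also inside it with the length trend subtracted.

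The enzymes that methylate elongation factors were low, and 2 of 6 were at least 1.5-fold higher, where 8.97% of all genes were. With a pseudocount of 5 FPKM, which weighs on low genes, neither was past the mark, at 0.44 for EEF2KMT and 0.28 for EEF1AKMT4, and EEF1AKMT4 was also under it at 0.57 with the length trend subtracted. EEF2KMT, which methylates a lysine of eEF2 (ENSG00000118894; chromosome 16, 5084284 to 5097795), had 6.21 FPKM (138 reads) in CEL and 3.29 FPKM (63 reads) in Control, a ratio of 1.89 (1.39 to 2.59). Of its exonic bases, 29.3% are shared with ALG1 on the other strand, which had 432 reads in CEL and 314 reads in Control, and the part of ALG1 in the value was not tested. EEF1AKMT4, a lysine methyltransferase of eEF1A, had 35 reads in CEL and 12 in Control, a ratio of 2.51 (1.27 to 5.32) on few reads, and shares 46.8% of its exonic bases with other genes. EEF1AKMT2 had 7.78 FPKM in CEL and 5.08 FPKM in Control, a plain ratio of 1.53 (1.26 to 1.87) that stayed under the mark on the scale with the pseudocount. EEF1AKMT1 had 5.85 FPKM in CEL and 4.04 FPKM in Control with an interval of 0.997 to 2.12. EEF1AKMT3 had 5.94 FPKM in CEL and 6.39 FPKM in Control with an interval of 0.733 to 1.18. EEF1AKNMT, which methylates the N terminus and a lysine of eEF1A, had the highest level of the group at 34.1 FPKM in CEL and 32.8 FPKM in Control, with an interval of 0.947 to 1.14.

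The release factors were higher in CEL by a narrow range of ratios, where 50.2% of all genes were higher. ETF1, which encodes eRF1 and reads the stop codon, had 178 FPKM in CEL and 145 FPKM in Control, a ratio of 1.23 (1.17 to 1.28). GSPT1, the main eRF3, had 118 FPKM in CEL and 102 FPKM in Control, a ratio of 1.16 (1.10 to 1.22). GSPT2, its intronless relative, had 3.73 FPKM (179 reads) in CEL and 2.93 FPKM (121 reads) in Control, a ratio of 1.27 (1.01 to 1.62). GSPT2 stood at 3.16% of the GSPT1 level in CEL and 2.87% in Control, and the intervals of all 3 ratios overlap.

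The difference varied with the deposited gene length. Spearman's rho of log2 difference on length was −0.33 over the 61 members and −0.30 over 8170 protein-coding genes at 10 FPKM or more, as a description over genes that share both libraries. The members had a median length of 1294 bases and those genes one of 1549 bases. With the trend of all such genes subtracted, the median of all named genes was −0.06, and 48 of 61 members were above 0, where 43.9% of all genes were. Past 1.5-fold were then EEF2KMT and EIF3J as higher and EIF4A1 as lower, where 4.94% of all genes were higher and 14.6% lower. Of the 50 members above 0, 21 had their log2 difference reduced by more than 1.5 times and 3 were at or below 0. Short eIF3 subunits were among them, with EIF3I at 0.05 in place of 0.36, EIF3G at 0.03 in place of 0.37 and EIF3E at 0.24 in place of 0.48. The difference was larger after subtraction for 9 of the 50. EIF2S2 and EIF1AX, long members with 2556 and 2589 bases, had log2 differences of 0.56 and 0.53 with the trend subtracted. What links length and the ratio was not tested.

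**Figure D3:**
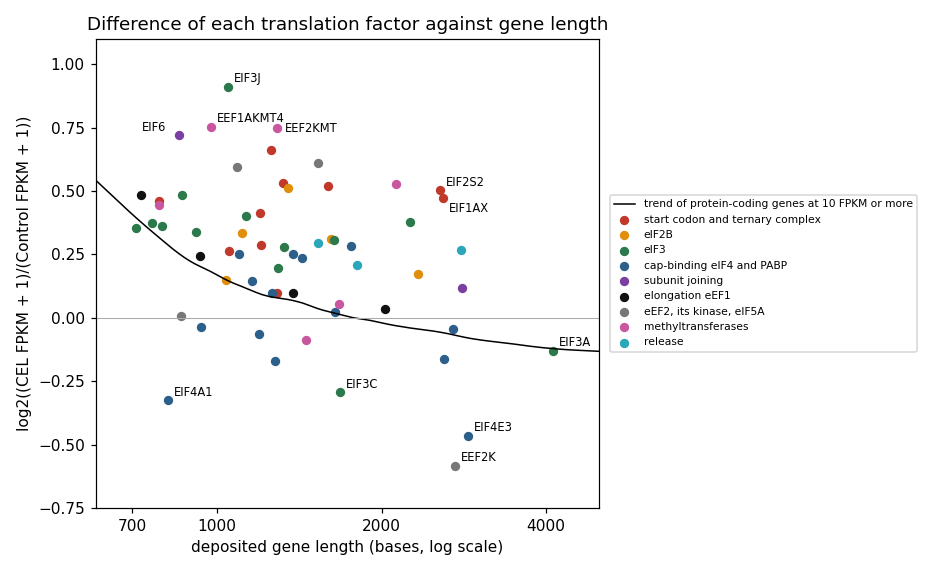
Log2 difference of the 61 measured members on the scale with a pseudocount of 1 FPKM, against deposited gene length in bases on a log axis, coloured by role, with the trend of protein-coding genes at 10 FPKM or more as a line. Most members lie above the line, EIF3A at 4115 bases lies on it, and EEF2, EEF2K, EIF4E3, EIF3C and EIF4A1 are among those below it.

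Other genes of the pathway differed from list to list, and each list's count stands against 8.97% of all genes at least 1.5-fold higher and 10.2% lower. Of 11 genes of the eIF2 kinase and stress response list, 4 were at least 1.5-fold higher in CEL and 0 lower, with a median log2 difference of 0.33. The higher count was 3 with a pseudocount of 5 FPKM, a filter at 5 FPKM, the TPM scale, centring on the median or the length trend subtracted. PPP1R15A, which brings a phosphatase to eIF2 alpha, had 60.5 FPKM (2122 reads) in CEL and 27.8 FPKM (840 reads) in Control, a ratio of 2.18 (2.01 to 2.36). DDIT3, TRIB3 and ATF4, transcription regulators of that response, were the others, with DDIT3 at 76 reads in CEL and 32 in Control, TRIB3 at 27.8 FPKM in CEL and 16.3 FPKM in Control, and ATF4 at 122 FPKM in CEL and 78.7 FPKM in Control. The kinases themselves were closer to 1. EIF2AK1, the heme-sensing kinase, had 153 FPKM in CEL and 163 FPKM in Control, and EIF2AK2, activated by double-stranded RNA, had 49.9 FPKM in CEL and 58.6 FPKM in Control. EIF2AK3, of the endoplasmic reticulum, had 8.98 FPKM in CEL and 8.94 FPKM in Control, and EIF2AK4, which senses amino acid shortage, had 73.4 FPKM in CEL and 58.0 FPKM in Control.

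The list of 4E-BPs and mTORC1 genes had 16 measured genes with a median of −0.12, 0 at least 1.5-fold higher and 1 lower. The lower count was 3 on the TPM scale, and 2 when centred on the median, with no filter on low values or with the length trend subtracted. The lower gene was DDIT4, an inhibitor of mTORC1, at 42.8 FPKM in CEL and 69.9 FPKM in Control. PDCD4, which blocks the eIF4A helicase, had 17.1 FPKM in CEL and 25.5 FPKM in Control, MKNK1, a kinase of eIF4E, had 11.7 FPKM in CEL and 16.6 FPKM in Control, and TSC2, a brake on mTORC1, had 24.8 FPKM in CEL and 34.2 FPKM in Control. EIF4EBP1, a repressor of eIF4E, had 69.9 FPKM in CEL and 54.3 FPKM in Control, a ratio of 1.29 (1.16 to 1.43). EIF4EBP2 had 22.7 FPKM in CEL and 23.9 FPKM in Control, and EIF4EBP3 had 1 read in CEL and 8 in Control. These 3 repressors are true genes whose symbols end like those of pseudogenes, which is why they are not counted among the 67.

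For the other lists, ribosome recycling and rescue had 2 of 12 higher and 0 lower with a median of 0.07, and 1 higher on the TPM scale, when centred on the median or with the length trend subtracted. Its higher genes were ABCE1, which splits ribosomes after release, at 125 FPKM in CEL and 81.4 FPKM in Control, and MCTS1, which helps recycle the small subunit, at 16.4 FPKM in CEL and 8.69 FPKM in Control. Enzymes of hypusine and diphthamide, the modifications of eIF5A and eEF2, had a median of 0.29 with 1 of 9 higher, DPH5, at 41.0 FPKM in CEL and 25.9 FPKM in Control. That count was 0 with a pseudocount of 5 FPKM or the length trend subtracted. DOHH, the last enzyme of hypusine synthesis, had 20.4 FPKM in CEL and 15.7 FPKM in Control, and DHPS had 26 reads in CEL and 15 in Control. Mitochondrial translation factors had 0 of 9 past 1.5-fold with a median of 0.15, and the PABP family had 0 of 4 with a median of 0.16. EEFSEC, the elongation factor for selenocysteine, was the 1 lower gene of its list of 3, at 3.24 FPKM (76 reads) in CEL and 5.70 FPKM (115 reads) in Control, and was inside the mark with a pseudocount of 5 FPKM. The initiation helicases DDX3X and DHX29 had log2 differences of −0.02 and −0.06, and their median turned positive, to 0.06, with the length trend subtracted.

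**Figure D4:**
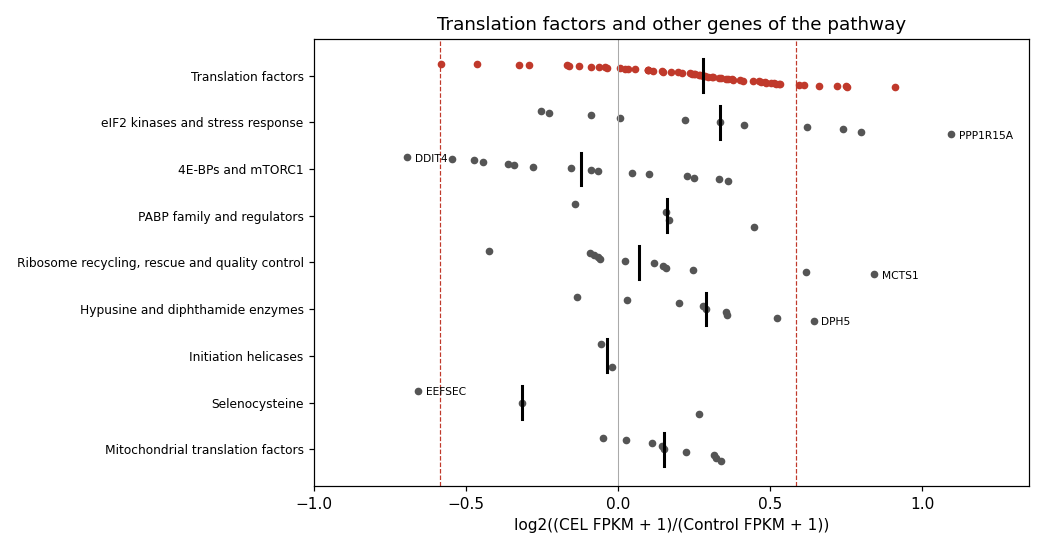
Log2 difference on the scale with a pseudocount of 1 FPKM for the 61 measured translation factors (red) and for the measured genes of 8 other lists of the pathway (grey), 1 point a gene, with the median of each list as a black bar and 1.5-fold as dashed red lines. The medians run from −0.32 for the selenocysteine list to 0.33 for the eIF2 kinase and stress response list, and the translation factors sit at 0.28.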

How the data were processed

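RNA of MDA-MB-231 cells was sequenced in 2 libraries, 1 for CEL and 1 for Control. The deposited FPKM were made by the authors from reads per gene, and HTSeq 0.5.4 and GRCh38 are named per the submitters' processing notes; the sources used here do not give the aligner, annotation release or strand setting. Whole reads were recovered from FPKM times deposited gene length to a relative tolerance of 1e-09, at the printed length for 68.7% of the 24783 genes above 0 and at a length shared by both libraries for 31.3%. Genes without a name (354, holding 0.265% of CEL and 0.298% of Control reads) were left out. A count of 0 allows 3 reads, 0.174 FPKM in CEL and 0.202 FPKM in Control for 1 kb. With 1 library a group no test was run; a rule of size (1.5-fold or 2-fold, pseudocount 1 FPKM, filter 1 FPKM) and counting intervals were used. Full values went to members past 1.5-fold, the extremes and the highest level of each role, paralogs, and up to 4 genes a list. Members and lists were chosen with earlier results of these data known. Alternatives were other pseudocounts, filters and scalings, removal of a lowess length trend, overall or in 5 expression bins, and added pseudogene reads. Exon overlap and coding sequences came from GENCODE 29, and starts from RefSeq. Python 3.11.15, numpy 2.4.6, pandas 2.3.3, scipy 1.17.1, statsmodels 0.14.6 and matplotlib 3.10.9 were used, and the steps were tested on simulated data.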

Additional observations from a re-analysis of the deposited data

How the results depend on the processing

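No paired analysis was possible because each group is 1 library. The count of members at least 1.5-fold higher, 7, was 3 with a pseudocount of 5 FPKM (4.39% of all genes), 2 with the length trend subtracted (4.94%) and 4 with it subtracted within expression bins (5.33%), against 8.97% of all genes as reported; without the 14 members (10 of them measured) that share exons or have a near copy, an alternative chosen after seeing the data, it was 4. It was between 5 and 8 under the other alternatives. The count at least 1.5-fold lower, 0, was 2 with a pseudocount of 0.1 FPKM (EEF2K and EIF4E3; 14.1% of all genes), 1 on the TPM scale (13.5%) and 1 when centred on the median (11.9%), EEF2K both times, and 1 with the length trend subtracted (EIF4A1; 14.6%), against 10.2% as reported. At least 2-fold higher was 1 member with a pseudocount of 0.1 FPKM (EEF1AKMT4). The median log2 difference of the members, 0.28, was 0.14 with the length trend subtracted and 0.15 within expression bins, and between 0.23 and 0.28 under the rest. None of the 7 members past 1.5-fold turned negative under these alternatives. They were picked for their size in these data, and pseudocounts, filters and removal of members cannot change a sign, so this lends them no support. Of 597 values of single members under the alternatives, 529 stayed within the counting error and 68 did not. The 529 include values that could not move, because the filters and the removal of members leave a member's own value unchanged. Added pseudogene reads likewise change only members that have such reads. The 529 are therefore no measure of stability, and wide intervals of low members also allow large moves. With 1 library a group, the depth of reads limits low members such as EEF1AKMT4, and the spread between cultures is unknown.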
